A study of Apostichopus japonicus with 3 samples.

Results

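Of the 21290 isotigs in the body wall transcriptome of the sea cucumber Apostichopus japonicus, 36 carried a name from a group of secreted and extracellular matrix proteins. They were taken by name alone, from the KEGG orthology entry listed first for each isotig, an isotig being a transcript assembled from reads. The names were von Willebrand factor (11 isotigs), thrombospondin (7), fibrillin 1 (5), chondroitin sulfate proteoglycan 3 or neurocan (4), thyroglobulin (3), chondroadherin (3), chondroitin sulfate proteoglycan 4 (2) and epidermal growth factor (1). No isotig was named fibulin. The choice of names was made with earlier results of these data known, so the values below are descriptions and no test is attached to them.

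The body wall of a sea cucumber is mostly connective tissue whose stiffness is under nervous control. It is built of collagen fibrils, a network of fibrillin-like microfibrils, and proteoglycans with sulfated sugar chains. Von Willebrand factor, thrombospondins, fibrillins and chondroadherin are proteins that in vertebrates sit in or beside such a matrix and link it to cells, to growth factors or to each other. All are built from repeated domains that also occur in other secreted proteins, so a name taken from a sequence hit marks a domain more surely than a particular gene.

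Gene expression was measured by short-read sequencing of messenger RNA in 3 libraries, with 1 library per group. The group labelled Control was kept in natural light of about 100 lux. The group labelled Dark was kept for 2 h in a covered, fully dark tank, and the group labelled Light was lit at about 2000 lux for the same 2 h. How many animals went into each library is not stated in the labels, and there were no replicates, so animal-to-animal variation was not measured. Body wall is the tissue in the tissue label and the extraction protocol, but all 3 source labels read intestine.

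The libraries held 1.57 M (control), 1.70 M (dark) and 1.64 M (light) uniquely assigned reads. A group of 3 unnamed isotigs alone made up 7.17%, 12.4% and 6.39% of them, and the rest of each library shared the remainder. The median log2 ratio of all 18225 tested isotigs in dark vs control was -0.31 on the deposited scale against 0.00 with median-of-ratios size factors. Tested means a mean of at least 1 RPKM (reads per kilobase of isotig, scaled to the reads of the library). Folds below compare reads per library total and carry a 95% counting interval, which covers counting error only. Folds printed with size factors rescale the same reads.

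Marker lists for tissue were read in the same libraries. The 4 fibrillar collagen isotigs, the main protein of connective tissue, summed to 20542 RPKM in control, 18918 in the dark and 22854 under strong light, and none was at 0. The 42 isotigs of digestive enzymes summed to 2656, 2420 and 2623 RPKM, with 4, 5 and 6 of them at 0 reads. The most abundant of them, a trypsin (isotig14072), had 1005, 945 and 1042 RPKM in control, dark and light. Of the 11 enzyme names sought, 3 had no isotig (chymotrypsin, carboxypeptidase B and sucrase). The same held for 1 of 4 muscle names, 3 of 5 nervous tissue names and 3 of 6 coelomocyte names. The 64 muscle isotigs summed to 1759, 1145 and 2114 RPKM, with 3, 12 and 6 at 0, and the 6 nervous tissue isotigs to 295, 123 and 254 RPKM, with none at 0. The 124 coelomocyte isotigs, for the cells of the body fluid, summed to 10014, 10699 and 9991 RPKM, with 4, 7 and 6 at 0. The muscle and nervous tissue sums were thus lower in the dark library, and their part in the results below was not tested. In whole tissue, fewer cells of a type and less RNA per cell cannot be told apart.

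The 36 isotigs together took 0.634% of the reads in control (95% Wilson interval 0.622 to 0.647), 0.264% in the dark (0.256 to 0.271) and 0.570% under strong light (0.559 to 0.582). In control and light most of these reads belonged to a few isotigs. The 3 with the most reads in those libraries, one each named von Willebrand factor, chondroitin sulfate proteoglycan 4 and epidermal growth factor, held 66.0% of them in control, 38.1% in the dark and 64.9% under strong light. Without these 3 the shares were 0.216% (0.209 to 0.223), 0.163% (0.157 to 0.169) and 0.200% (0.193 to 0.207). In the dark library the 3 with the most reads were isotig17502, isotig10750 and isotig02348, with 47.7% of the members' reads. Divided by the size factors, the 36 isotigs came to 9578, 4959 and 8518 reads in control, dark and light, so the dark library was lowest on both scales. Without the 3 abundant isotigs the same values were 3259, 3071 and 2990, and dark was then no longer the lowest.

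Names were less certain here than for most annotated isotigs. In 11 of the 36, or 30.6%, the hit behind the name had an E-value above 1e-10, against 13.5% of all isotigs with a KEGG hit. These 11 include the epidermal growth factor isotig, all 3 thyroglobulin isotigs and the most abundant von Willebrand factor isotig. Only 2 of the 36 hits were to a sea urchin, the one other echinoderm among the hits, and 8 were to the frog Xenopus tropicalis. A gene ontology function was attached to 3 of the 36. The median isotig length was 1249 bases (225 to 6778), longer than the 796 bases of all isotigs, and the median of the mean read number was 83.8 against 13.

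Von Willebrand factor is a large protein of vertebrate blood that tethers platelets to collagen, and its D domains are shared with mucins. Of the 11 isotigs with this name, 9 were tested. They ranged from 1.40 to 2953 RPKM in control, and one isotig stood far above the rest.

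The abundant one, isotig17502 (1004 bases, E-value 2e-08, with mucin-5B as a further hit), had 2953 RPKM in control, 755 in the dark and 2199 under strong light. By level it ranked 21 among all isotigs in control, 167 in the dark and 41 under strong light. Its reads numbered 4655, 1287 and 3632, which makes it 3.91-fold lower in the dark (3.68 to 4.16), or 3.14-fold with size factors, and 1.34-fold lower under strong light (1.29 to 1.40). The dark library thus stood apart, with the light library between it and control.

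A less abundant isotig with a stronger hit, isotig23805 (E-value 2e-31 to a mouse protein), showed the low dark value without any difference in the light library. It had 120 RPKM in control, 31.8 in the dark and 120 under strong light, from 108, 31 and 113 reads. The dark value was 3.77-fold lower than control (2.51 to 5.81), or 3.02-fold with size factors. It was the 1 isotig among the 11 with an annotated process, hemostasis.

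The other well-read von Willebrand factor isotigs did not share the low dark value. Isotig15610 (E-value 1e-47, the strongest hit among the tested ones) had 84.3, 78.8 and 77.6 RPKM in control, dark and light, and isotig05350 had 70.5, 66.2 and 77.0 RPKM. Both were 1.07-fold lower in the dark on the deposited scale and 1.17-fold higher with size factors, so their direction depended on the scaling. Uniquely assigned reads covered about 29.1% of isotig05350 in each library, so its RPKM describes a part of it. A pair of short isotigs was instead lowest under strong light. Isotig01566 had 88.2, 91.7 and 48.9 RPKM, 1.80-fold lower under strong light than in control (1.30 to 2.51), and isotig03208 had 91.9, 107 and 58.5 RPKM, 1.57-fold lower (0.951 to 2.63, an interval that holds 1).

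The longest of the 21290 isotigs also carried this name. Isotig01105 (6778 bases, E-value 4e-08) had 89, 74 and 143 reads in control, dark and light, 1.53-fold higher under strong light (1.17 to 2.02). These reads covered 1.89%, 2.95% and 4.62% of its length, so its RPKM of 8.36, 6.43 and 12.8, which divides by the full length, describes a short stretch of it.

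Another 4 von Willebrand factor isotigs had few uniquely assigned reads. Isotig29302 (260 bases) had 1 read in control, 1 in the dark and 13 under strong light, 12.4-fold higher than control with an interval of 1.86 to 527. Isotig05351 had 4, 2 and 7 reads, which covered 4.33%, 4.33% and 7.73% of it. Its number follows that of isotig05350, and both share a hit and a length of 1824 bases. Reads that match both isotigs are not in these counts. Whether shared sequence kept the count of isotig05351 low was not tested. Isotig08747 and isotig22654 had 2 and 1 reads in control and 0 in the other 2 libraries. A count of 0 allows up to 3 reads, which is 0.682 RPKM in the dark and 0.704 under strong light for isotig08747, so no difference was detectable at this depth. Isotig08747 had the strongest hit of all 11 (E-value 5e-68).

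Summed over the 11 isotigs, von Willebrand factor stood at 3421 RPKM in control, 1140 in the dark and 2627 under strong light. The sum follows isotig17502, and the median log2 ratio of its 9 tested isotigs in the dark was -0.10, against -0.31 for all isotigs.

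**Figure D1:**
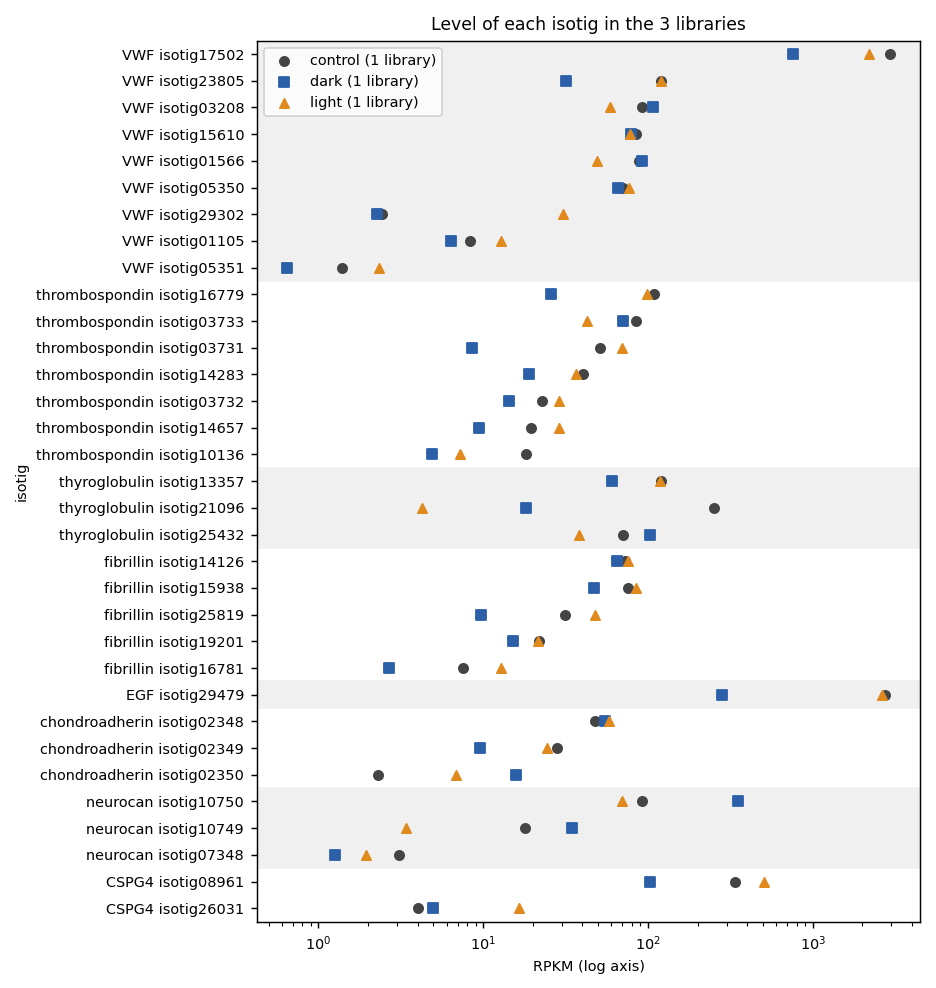
RPKM of the 33 isotigs that had reads in all 3 libraries, on a log axis, with 1 point per library and no replicates, grouped by name (VWF, von Willebrand factor; EGF, epidermal growth factor; CSPG4, chondroitin sulfate proteoglycan 4). Isotig17502 and isotig29479 stand above 2000 RPKM in control and light, and both have their lowest point in the dark library.

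Thrombospondins are calcium-binding glycoproteins that bind cells, matrix and growth factors. All 7 isotigs of this name were tested, all 7 had a hit at or below the E-value limit, and all 7 were lower in the dark than in control on the deposited scale. The median log2 ratio of all tested isotigs was itself negative on that scale, at -0.31. In 5 of the 7 the difference was at least 2-fold, and in 3 with size factors, beside 24.0% and 16.6% of all tested isotigs. With size factors 1 of the 7, isotig03733, was higher in the dark than in control (log2 ratio 0.07).

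Isotig16779, whose hit was to a sea urchin protein, had 108 RPKM in control, 25.8 in the dark and 98.9 under strong light, from 186, 48 and 178 reads. It was 4.19-fold lower in the dark (3.04 to 5.88), or 3.36-fold with size factors. In the light library it was 1.09-fold lower than control with an interval that holds 1 (0.886 to 1.35).

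Isotig14657 had the strongest hit of the family, an E-value of 1e-121 to a tick protein. Its level was 19.6 RPKM in control, 9.45 in the dark and 28.9 under strong light. That was 2.07-fold lower in the dark (1.24 to 3.55), or 1.66-fold with size factors, and 3.05-fold higher in light than in dark (1.90 to 5.07) on the deposited scale. Isotig14283 had 40.4, 19.0 and 36.7 RPKM and was 2.12-fold lower in the dark (1.50 to 3.02), but 1.70-fold with size factors, under 2-fold. Isotig10136, an isotig annotated with angiogenesis and extracellular matrix, had 24, 7 and 10 reads and was the 1 thrombospondin at least 2-fold lower in both exposed libraries, 3.71-fold in the dark (1.55 to 10.2), or 2.97-fold with size factors, and 2.51-fold under strong light (1.16 to 5.89).

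A set of 3 thrombospondin isotigs, isotig03731, isotig03732 and isotig03733, have consecutive numbers and the same hit, a Xenopus tropicalis protein. Whether such a set is splice forms, alleles or neighbouring genes is not stated in the files. The uniquely assigned reads covered 12.4% to 23.15% of the length of each, so their counts describe a short stretch of each isotig. Isotig03731 had 227, 41 and 325 reads in control, dark and light. Isotig03732 had 102, 69 and 135, and isotig03733 had 227, 207 and 121. The dark value of isotig03731 was 5.99-fold below control (4.28 to 8.57), or 4.80-fold with size factors, and its light value 1.37-fold above it (1.15 to 1.63). Isotig03733 was instead lowest in light, 1.97-fold below control (1.57 to 2.47).

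The division of reads within this set differed between the libraries, and a share within a library does not depend on how libraries are scaled. Isotig03731 held 40.8% of the set's reads in control (exact 95% interval 36.7 to 45.0), 12.9% in the dark (9.44 to 17.1) and 55.9% under strong light (51.8 to 60.0). Isotig03733 went the other way, with 40.8% in control (36.7 to 45.0), 65.3% in the dark (59.8 to 70.5) and 20.8% under strong light (17.6 to 24.4). Isotig03732 kept 18.3%, 21.8% and 23.2%. None of the intervals of the first or of the last overlapped between libraries, while those of isotig03732 did. These intervals cover counting error only, and how often sets elsewhere in the transcriptome differ in this way was not tested. The shares are of uniquely assigned reads, so they are not the proportions of the isotigs among transcripts. As a sum the thrombospondin set had 556, 317 and 581 reads in control, dark and light. It was 1.90-fold lower in the dark (1.65 to 2.18), or 1.52-fold with size factors, while light and control differed by less than the counting error (interval of control over light 0.891 to 1.13).

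**Figure D2:**
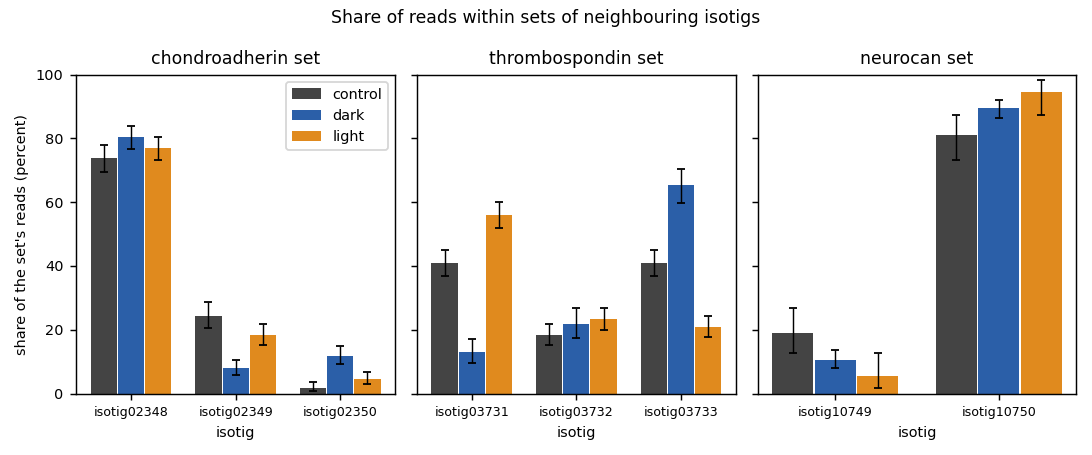
Share of the uniquely assigned reads of 3 sets of consecutively numbered isotigs, in percent. Error bars are exact 95% binomial intervals, with 1 library per colour. The reads cover only part of each isotig. In the thrombospondin set isotig03731 goes from 40.8% in control to 12.9% in the dark and 55.9% under strong light, while isotig03733 does the reverse.

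Chondroadherin is a leucine-rich repeat protein that binds collagen and cells in vertebrate cartilage. Its 3 isotigs, isotig02348, isotig02349 and isotig02350, also form a set of consecutive numbers with 1 shared hit, to a zebra finch protein. The carboxypeptidase N regulatory subunit, a further leucine-rich repeat protein, was the second hit of all 3.

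The most abundant, isotig02348, had 328, 409 and 417 reads in control, dark and light, at 47.9, 55.2 and 58.1 RPKM. Isotig02349 had 108, 40 and 99 reads and was 2.92-fold lower in the dark (2.01 to 4.31), or 2.34-fold with size factors. Isotig02350 had 8, 60 and 25 reads. It was 6.93-fold higher in the dark (3.30 to 16.8), or 8.64-fold with size factors, and 2.98-fold higher under strong light (1.30 to 7.65). The uniquely assigned reads covered 3.55% of isotig02350 in control, 10.9% in the dark and 9.79% under strong light. Coverage was 11.7% to 12.6% for isotig02349 and about 16.1% for isotig02348. The values of this set thus describe a short stretch of each isotig.

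Within the set, isotig02350 thus held 1.80% of the reads in control (0.781 to 3.52), 11.8% in the dark (9.12 to 14.9) and 4.62% under strong light (3.01 to 6.75). Isotig02349 held 24.3% (20.4 to 28.6), 7.86% (5.67 to 10.5) and 18.3% (15.1 to 21.8). The dark intervals of both lay apart from those of control and light, with the same limit as for the thrombospondin set. The sum of the set was 444 reads in control, 509 in the dark and 541 under strong light. The sum was thus 1.06-fold higher in dark than in control (0.931 to 1.21) and 1.16-fold higher in light (1.02 to 1.32). With size factors the log2 ratio of the summed RPKM was 0.36 in the dark, against 0.04 on the deposited scale.

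Thyroglobulin is the hormone precursor of the vertebrate thyroid, and its type-1 domain occurs in other secreted and matrix proteins. All 3 isotigs with this name had weak hits, with E-values of 6e-08, 3e-09 and 1e-06, and their patterns had little in common.

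Isotig21096 (716 bases) had the largest difference from control among the 36. It had 283, 22 and 5 reads in control, dark and light, at 252, 18.1 and 4.25 RPKM. The control library was high and both exposed libraries were low. The isotig was 59.3-fold lower under strong light (25.1 to 184) and 13.9-fold lower in the dark (9.01 to 22.6), or 11.2-fold with size factors, and light was 4.26-fold below dark (1.57 to 14.4). Reads covered 97.6%, 85.1% and 31.6% of it. Its rank by level was 533 in control, 6885 in the dark and 14475 under strong light, and its 1 gene ontology function was transferase activity.

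The other two thyroglobulin isotigs were less variable. Isotig13357 (2256 bases, with complement component 6 as a further hit) had 120 RPKM in control, 60.6 in the dark and 118 under strong light, 1.98-fold lower in the dark (1.68 to 2.33) or 1.59-fold with size factors. Isotig25432 had 70.5, 103 and 37.9 RPKM, highest in the dark and lowest under strong light. It was 2.72-fold lower in light than in dark (1.79 to 4.24), or 3.42-fold with size factors.

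Fibrillin 1 forms the backbone of microfibrils and is made of many epidermal growth factor-like domains. All 5 isotigs with this name had E-values between 2e-97 and 2e-27, all 5 were tested, and all were lowest in the dark library on the deposited scale. On that scale the median log2 ratio of all tested isotigs in dark vs control was itself negative, at -0.31. In light vs control 0 of the 5 were 2-fold apart, beside 7.77% higher and 7.22% lower among all tested isotigs. Isotig14126 had 73.0 RPKM in control, 64.6 in the dark and 75.8 under strong light. It was 1.13-fold lower in the dark (0.917 to 1.39) on the deposited scale but 1.10-fold higher with size factors. Isotig15938 had 75.6, 47.3 and 85.1 RPKM and was 1.60-fold lower in the dark (1.23 to 2.09), or 1.28-fold with size factors.

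The 3 fibrillin isotigs with fewer reads gave less precise ratios. Isotig25819 had 24, 8 and 38 reads and was 3.24-fold lower in the dark (1.41 to 8.35), or 2.60-fold with size factors. Isotig16781 had 13, 5 and 23 reads and was 2.81-fold lower (0.941 to 10.1), or 2.26-fold with size factors. Isotig19201 had 29, 22 and 30 reads. As a sum, fibrillin 1 stood at 209 RPKM in control, 140 in the dark and 243 under strong light.

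The isotig named epidermal growth factor, isotig29479, was short (225 bases) and its hit weak (E-value 8e-07). Its further hits were latent transforming growth factor beta binding protein and CDW93 antigen, which like fibrillins contain epidermal growth factor-like domains. It came next to isotig17502 in control, at 2762 RPKM in control, 280 in the dark and 2626 under strong light. Its reads numbered 976, 107 and 972, so that control and light were level and dark was low. The dark value was 9.86-fold below control (8.07 to 12.2), or 7.91-fold with size factors, and light was 1.05-fold below control (0.961 to 1.15). By level it ranked 26 in control, 434 in the dark and 25 under strong light.

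Chondroitin sulfate proteoglycan 4 is a membrane-spanning proteoglycan in vertebrates, rather than a secreted one. Isotig08961 had 940, 310 and 1480 reads in control, dark and light, at 338, 103 and 508 RPKM. The 3 libraries were thus ordered dark, control, light, with intervals of each ratio that exclude 1. It was 3.28-fold lower in the dark than in control (2.88 to 3.74), or 2.63-fold with size factors, and 1.50-fold higher in light (1.38 to 1.63). Light was 4.93-fold above dark (4.36 to 5.59). Isotig26031, whose hit was to a sea urchin protein, had 3, 4 and 13 reads and was 4.14-fold higher in light than in control (1.14 to 22.6).

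Neurocan is a chondroitin sulfate proteoglycan of the vertebrate brain that ends in a C-type lectin domain. Its better-read isotigs stood highest in the dark and lowest under strong light. Among the tested members isotig25432, isotig01566 and isotig03208 shared this order on the deposited scale. With size factors isotig03733 and isotig15610 had it too. Among the neurocan isotigs, the better-read ones were isotig10750 and isotig10749. Isotig10750 had 107, 440 and 84 reads in control, dark and light, at 92.7, 352 and 69.5 RPKM. It was 3.80-fold higher in the dark (3.07 to 4.74), or 4.74-fold with size factors, and 1.33-fold lower under strong light with an interval that holds 1 (0.993 to 1.80). The neighbouring isotig10749 had 25, 52 and 5 reads. It was 1.92-fold higher in the dark (1.17 to 3.23), or 2.40-fold with size factors, and 5.24-fold lower under strong light (1.97 to 17.5). Summed, the pair had 132, 492 and 89 reads, and light stood 5.35-fold below dark (4.26 to 6.79), or 6.74-fold with size factors. The hits of both were weak (E-values of 7e-09 and 1e-08), and the set was covered over 11.3% to 33.3% of its length.

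The second neurocan set had stronger hits (E-value 2e-13) and few reads. Isotig07348 had 9, 4 and 6 reads and isotig07349 had 0, 1 and 0. For these, no difference was detectable at this depth.

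**Figure D3:**
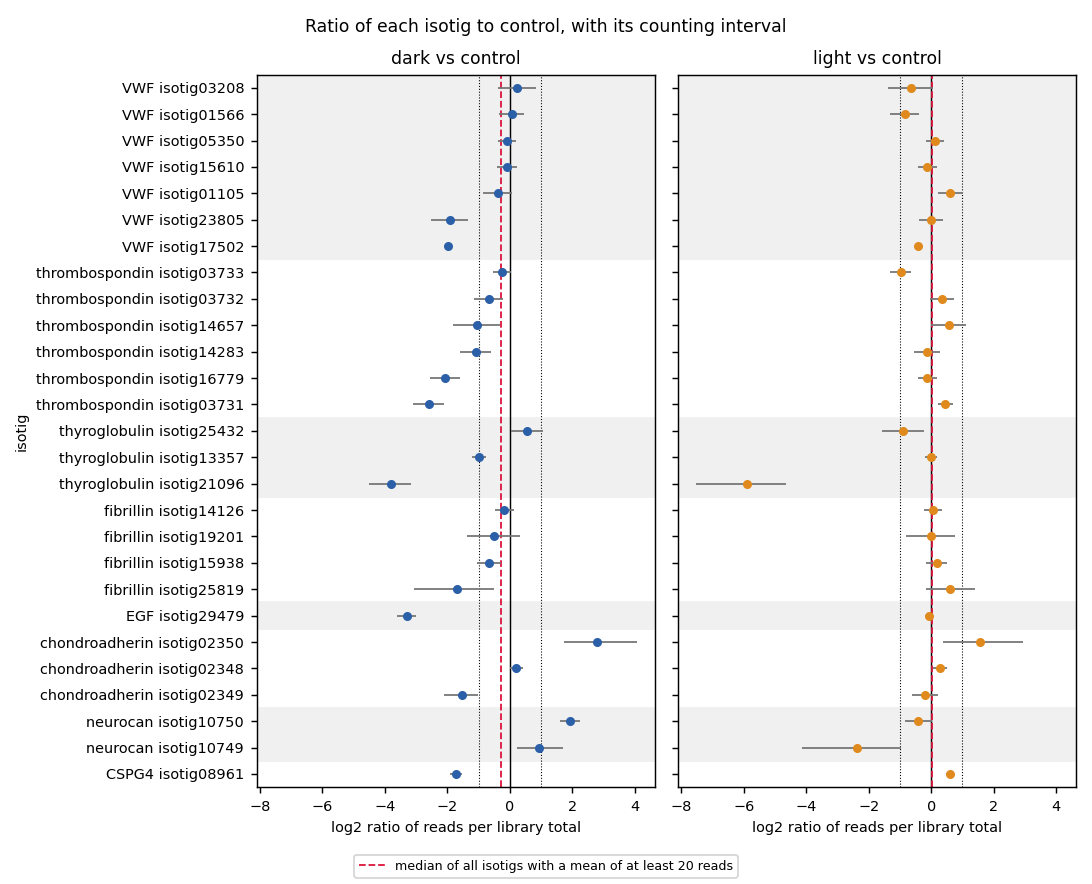
Log2 ratio of reads per library total for the 27 tested members averaging 20 or more reads, dark against control on the left and light against control on the right. Bars are 95% counting intervals, dotted lines mark 2-fold, and the dashed line is the median of all isotigs with that many reads; the left panel spreads to both sides and on the right only isotig21096, isotig10749 and isotig02350 of the 27 lie past 2-fold.

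Set against all isotigs, dark vs control held more members past 2-fold than light vs control. Of the 33 tested isotigs with these names, 14 were at least 2-fold lower in the dark and 2 at least 2-fold higher. That is 42.4% and 6.06%, while among all 18225 tested isotigs 24.0% were lower and 7.09% higher. Among all tested isotigs with a KEGG name the shares were 29.7% and 4.20%. Under size factors 11 of the 33 were lower and 3 higher, or 33.3% and 9.09%, beside 16.6% and 11.8% of all tested isotigs. The median log2 ratio of the 33 was -0.67, which is 0.36 below the median of all tested isotigs and 0.11 below that of all tested isotigs with a KEGG name.

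Because these isotigs had more reads than most, the count was repeated for a mean of at least 20 reads. Of 27 such members, 11 were lower in the dark and 2 higher, or 40.7% and 7.41%. Among all isotigs with that many reads 19.1% were lower and 2.82% higher. By counting interval alone, 15 of the 33 lay below control and 4 above it, beside 22.1% and 7.64% of all tested isotigs. At a mean of at least 20 reads 14 of 27 lay below and 4 above, beside 35.8% and 13.5%.

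Few members lay past 2-fold in light vs control. Of the 33, 3 were at least 2-fold higher (isotig02350, isotig26031 and isotig29302) and 3 lower (isotig21096, isotig10749 and isotig10136), 9.09% each, beside 7.77% and 7.22% of all tested isotigs. At a mean of at least 20 reads 1 of 27 was higher and 2 lower, beside 1.54% and 1.79% of all. A smaller difference was more frequent. The counting interval lay wholly above control for 8 of the 33 and wholly below it for 7, or 24.2% and 21.2%, beside 6.16% and 5.31% of all tested isotigs. At a mean of at least 20 reads it did so for 6 each of 27, or 22.2% each, beside 9.70% and 8.80%. Intervals narrow with reads, and the members' median of mean reads was 83.8 against 13 for all isotigs, so this share depends on depth. The median log2 ratio of the 33 was -0.02, against 0.00 for all tested isotigs.

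Directly compared, light stood above dark by at least 2-fold for 13 of the 33 and below it for 5, or 39.4% and 15.2%, beside 26.2% and 8.09% of all tested isotigs. At a mean of at least 20 reads 9 of 27 were higher and 5 lower, beside 22.0% and 4.10%. Size-factor scaling gave 12 higher and 8 lower members, beside 18.5% and 14.0%. The 5 lower on the deposited scale were isotig02350, isotig10749, isotig10750, isotig21096 and isotig25432. This comparison shares its libraries with the other two, so it is not a separate observation.

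**Figure D4:**
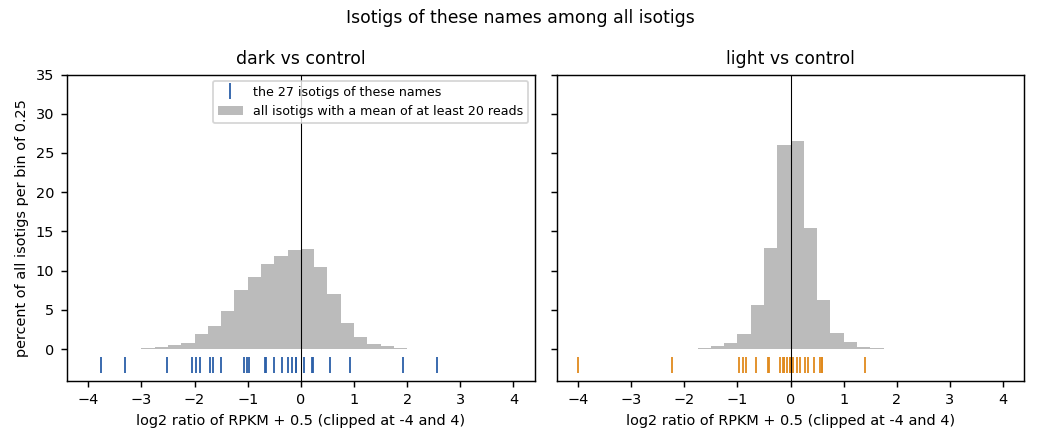
Distribution of the log2 ratios of RPKM plus 0.5 over all tested isotigs averaging 20 or more reads (grey bars, percent per bin), with the 27 isotigs of these names as ticks below, for dark against control and light against control. In the dark 11 of the 27 ticks lie at or below -1; in light 2 do, with isotig21096 drawn at the edge of the axis.

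Other genes of the extracellular matrix were read from 4 lists of names. Their counts past 2-fold stand beside the shares of all tested isotigs given above, in dark vs control 24.0% lower and 7.09% higher (size factors: 16.6% and 11.8%), around a median of -0.31. In light vs control those shares were 7.22% lower and 7.77% higher, around a median of 0.00. The scaffold list (collagens, laminins, nidogen, perlecan, agrin, fibronectin and others; 49 tested isotigs) had 20 (40.8%) at least 2-fold lower in the dark and 2 (4.08%) higher, with a median log2 ratio of -0.82, or 16 and 3 with size factors. Under strong light it had 2 (4.08%) lower and 5 (10.2%) higher and a median of 0.30. Its 2 most abundant isotigs, both fibrillar collagen, differed little. Isotig20045 had 14703, 12989 and 16408 RPKM in control, dark and light, and isotig14428 had 5208, 5451 and 5879 RPKM. The name patterns of this list also took in a collagen galactosyltransferase and a SLIT-ROBO GTPase activating protein.

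The enzyme names sought covered folding, cross-linking, sulfation and cleavage of matrix proteins, and 42 isotigs were tested. Of these, 14 (33.3%) were lower and 2 (4.76%) higher in the dark (median -0.51), or 8 and 2 with size factors. These shares were near those of all tested isotigs with a KEGG name, 29.7% and 4.20%. Protein disulfide-isomerase A1 (isotig13164), which forms disulfide bonds in secreted proteins, had 1122 RPKM in control, 845 in the dark and 975 under strong light. Protein disulfide-isomerase A6 (isotig23631) had 375, 312 and 414 RPKM. Under strong light 1 enzyme isotig (2.38%) was lower and 3 (7.14%) were higher.

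Receptors and surface proteins taken by name (integrins, Notch, low density lipoprotein receptor-related proteins, syndecan, glypican and others) had 80 tested isotigs. Whether each binds the proteins described here was not tested. Of these 47 (58.75%) were lower in the dark and 3 (3.75%) higher (median -1.10), or 31 and 4 with size factors. Under strong light 0 were lower and 4 (5%) higher. The 28 tested Notch isotigs made up 13 of those lower in the dark and all 3 of those higher in it. By its mean over the libraries a Notch isotig (isotig05245) was the most abundant, though only in the dark was it above the next one. It had 836 RPKM in control, 1925 in the dark and 900 under strong light. An isotig named low density lipoprotein-related protein 1 (isotig26055, E-value 5e-10, also above the limit) had 1225, 374 and 1302 RPKM. It was 3.27-fold lower in the dark (2.87 to 3.74), or 2.63-fold with size factors. In mammals the protein of this name is an endocytic receptor that takes up thrombospondins.

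The last list, ligands of the TGF-beta and BMP families and their binding proteins, had 16 tested isotigs. In the dark 7 (43.75%) were lower and 1 (6.25%) higher (median -0.50), or 6 and 2 with size factors. Under strong light 1 was lower and 1 higher, 6.25% each. The 2 most abundant isotigs of this list were named chordin, a secreted BMP antagonist. Isotig20247 had 1261, 852 and 960 RPKM in control, dark and light. Isotig23248 (E-value 1e-08, above the limit) had 87.9, 28.4 and 66.8 RPKM and was 3.10-fold lower in the dark (2.01 to 4.90), or 2.48-fold with size factors.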

How the data were processed

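Messenger RNA of 3 libraries, 1 per group, was analysed from the deposited tables. Per the file headers, these give counts of uniquely assigned reads per isotig, isotig length, the percent of the isotig covered, and RPKM made by the authors; reads, length and library total returned the deposited RPKM. Per the labels' protocols, oligo(dT) beads captured the messenger RNA and random hexamers primed it, with no strand marking or molecular identifiers recorded. CASAVA 1.5 is named per the submitters' processing notes; the assembler and aligner are not named in the sources used here. Isotigs not listed in a library were taken as 0 counts.

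Log2 ratios used RPKM plus 0.5, which understates the change of low isotigs, for the 18225 isotigs averaging 1 RPKM or more. Folds are ratios of reads per library total with exact conditional binomial (Clopper-Pearson) 95% intervals, shares within a set have Clopper-Pearson and shares of a library Wilson intervals. All cover counting error only; a count of 0 allows 3 reads. With 1 library per group there is no test and no p-value. TMM factors came from edgeR 4.0.16 and the rest from Python 3.11.15 with scipy 1.17.1. The interval step was checked on simulated data.

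The members and lists were chosen with earlier results of these data known. Isotigs were named by a rule (the 12 most abundant, the most-read of each name, a counting interval beyond 2-fold with a mean of at least 20 reads, 0 reads against at least 10, and the 8 highest and lowest ratios to control at a mean of at least 5 RPKM), which took 27 of the 36; the other 9 are given so that all are accounted for. Genome positions and sequences were not analysed here.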

Additional observations from a re-analysis of the deposited data

How the results depend on the processing

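Counts of members past 2-fold and their medians were recomputed under size factors, TMM factors, pseudocounts of 0.1 and 1 RPKM, no filter, a mean of at least 5 RPKM, and names with an E-value of at most 1e-10, and under 2 choices made after seeing the data (a mean of at least 20 reads, and consecutively numbered isotigs summed). Of 81 such values 73 stayed within 1.5-fold or, for medians, within their order-statistic interval. The 8 others were small counts. With E-values of at most 1e-10, which leaves 22 of the 33, lower members were 1 in light vs control and 1 in light vs dark, and higher members 1 in dark vs control. A mean of at least 20 reads left 1 higher member in light vs control. Summing neighbours left 1 higher member in dark vs control and 3 lower in light vs dark. Size factors and TMM factors each gave 8 lower in light vs dark. In dark vs control the lower members numbered 11 to 15 over all these settings. Size factors shift all log2 ratios of a comparison by a nearly equal amount, which is less than 2-fold. Isotigs or names at least 2-fold apart could therefore not change sign, so their unchanged sign is no check on them. The sign of 5 named isotigs within 2-fold did change under size factors in dark vs control. No paired analysis was possible because each group has 1 library, and for the same reason no replicate could be left out. Ratios of single isotigs and of names were recomputed too, and 49 of 348 such values counted as moved. All were ratios with the dark library. In dark vs control 17 moved under size factors and 8 under TMM factors, and in light vs dark 16 and 8. Among them were isotig17502, isotig29479 and isotig08961. Depth limits the isotigs with fewer than 20 reads, whose intervals span several-fold.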

Other observations

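Another 13 isotigs, not among the 36, list one of the same names after their first KEGG entry. A neurocan hit was also listed for an isotig named brevican (isotig10929), a lectin-bearing proteoglycan like neurocan, with 42, 138 and 61 reads in control, dark and light. Its level was 3.04-fold higher in the dark (95% counting interval 2.14 to 4.40), or 3.79-fold with size factors. Its neighbour isotig10930, named aggrecan 1, had 70, 145 and 30 reads and was 1.92-fold higher in the dark (1.43 to 2.59), or 2.39-fold with size factors. A second brevican isotig (isotig16194) had 199, 189 and 166 reads and was within 2-fold of control in both comparisons. The isotigs named mucin that also listed von Willebrand factor (isotig17991, isotig19399 and isotig25858) had at most 6 reads in any library. These isotigs were looked at after the values of the 36 had been seen.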
